A study of Mus musculus with 5 samples.

Results

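The genes described here code for the protein complexes of the mitochondrial respiratory chain. They were taken by name: gene names on the array that begin with Ndufa, Ndufb, Ndufc, Ndufs or Ndufv (complex I), the names Sdha to Sdhd (complex II), names that begin with Uqcr (complex III) or with Cox4 to Cox8 (complex IV), and names that begin with Atp5 (complex V). This gave 92 genes of the 37074 gene names on the array, with 45 in complex I, 4 in complex II, 8 in complex III, 17 in complex IV and 18 in complex V. Of the 92 names, 10 were counted as no subunit: 7 are assembly factors of complex I (Ndufaf1 to Ndufaf7), Atp5s and Atp5sl are related proteins, and Atp5c1-ps is a pseudogene. Cox7a2l was kept among the subunits of complex IV by its name alone. Each gene was read through its probe with the highest mean signal, and 39 of the 92 had more than 1 probe.

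Gene expression was measured on 5 mouse arrays, 1 for each condition. Liver sinusoidal endothelial cells (LSECs) came from mouse liver, and the labels name no tumor for them. Tumor endothelial cells (TECs) came from hepatomas grown in the mouse liver from HAK-1B or KYN-2 cells, which are human lines, or from Hepa1-6 cells, a mouse line, and the culture of Hepa1-6 cells itself was the fifth condition. The labels give the strain C57BL/6 for the LSEC sample and for each TEC sample and C57L for Hepa1-6 cells, whereas the methods name female C57BL/6 or nude (BALB/c nu/nu) mice, 6 weeks old when bought. TECs were the cells bound by magnetic beads against CD31, an endothelial surface protein, and the sources used here do not say how many animals were pooled for an array.

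The respiratory chain passes electrons from NADH through complex I, or from succinate through complex II, to complex III and then to cytochrome c oxidase (complex IV), and the proton gradient that results drives ATP synthase (complex V). Most subunits are encoded in the nucleus, and a few core subunits of complexes I, III, IV and V are encoded in mitochondrial DNA. Several subunits of complex IV have a common form and a second form known from muscle, testis, lung or hypoxic cells. Endothelial cells are known for relying on glycolysis for much of their ATP.

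With 1 array for each condition there is no replicate check on a single comparison, and a gene was counted as higher or lower only by the size of its ratio, at least 1.5 or at most 0.66. All values below are log2 of the quantile-normalized signal, or differences of such values (log2 ratios). The genes were bright: 87 of the 92 were well above background on all 5 arrays, and the median over genes of their mean log2 signal was 13.69, against 10.21 for all 13823 genes detected on the 5 arrays. The share of all probes well above background was 54.1% for LSECs, 57.6% for HAK-1B TECs, 78.1% for Hepa1-6 TECs, 54.7% for KYN-2 TECs and 44.6% for Hepa1-6 cells. The Hepa1-6 TEC array stood apart, since 46.9% of the 19866 probes that were dark on the other 4 arrays were well above background on it, and the matching shares for the other arrays lay between 1.63% and 4.33%. The 3 TEC arrays were on 1 slide, with the LSEC array and the Hepa1-6 cell array each on a slide of its own, so slide and TECs against LSECs cannot be told apart. Of 8 pan-endothelial markers, 8 were well above background on each endothelial array and 1 was on the array of Hepa1-6 cells, while their median log2 ratio to LSECs was -2.49 in HAK-1B TECs, -2.52 in Hepa1-6 TECs and -1.34 in KYN-2 TECs. Neutrophil markers moved the other way by their medians, which were 5.83, 4.48 and 1.38 over 8 genes. Of the 8, 1 was below LSECs in HAK-1B TECs, 1 in Hepa1-6 TECs and 3 in KYN-2 TECs. The log2 of their summed signal was 16.49 in LSECs and 17.74, 16.37 and 16.38 in the 3 TECs. Csf3r, which read 16.45 in LSECs, contributed most to the sum there. All 7 macrophage markers were well above background on each endothelial array. Their median log2 signal was 17.07 in LSECs and 14.66, 15.03 and 14.56 in the 3 TECs. In LSECs the median was 13.28 for the pan-endothelial markers and 16.26 for 8 LSEC markers. Of the 7, 4 were above LSECs in HAK-1B TECs, 2 in Hepa1-6 TECs and 2 in KYN-2 TECs. The LSEC array thus also held macrophage marker RNA, and its part in the ratios was not tested. In such mixtures fewer cells of a type and less RNA per cell cannot be told apart.

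Most respiratory chain genes stayed close to their LSEC level in the TECs. In HAK-1B TECs 5 of 89 genes kept by the detection flag were higher, where 26.6% of all genes were, and 9 were lower, where 27% of all genes were. In KYN-2 TECs 10 of 89 were higher (26% of all genes) and 9 were lower (28.5% of all genes). In Hepa1-6 TECs 24 of 91 were higher (35.4% of all genes) and 1, the assembly factor Ndufaf3, was lower (30.9% of all genes). The 24 include Cox7b2 and Cox8c, kept by the flag of Hepa1-6 TECs alone, and Cox8c was dimmer there (3.63) than the dimmest detected signal on the LSEC array (4.68). Among genes flagged present on both arrays, 21 of 88 were higher in Hepa1-6 TECs, beside 23.7% of all genes, and 1 was lower, beside 38.3%. The same counts were 4 higher and 9 lower of 88 in HAK-1B TECs, beside 22.5% and 25.8% of all genes, and 9 and 9 of 88 in KYN-2 TECs, beside 22.8% and 26.3%. The median log2 ratio of the genes was -0.09 in HAK-1B TECs, 0.28 in Hepa1-6 TECs and -0.12 in KYN-2 TECs, beside -0.0023, 0.09 and -0.05 over all genes. The middle 50% of the genes lay between -0.30 and 0.19, between 0.05 and 0.61, and between -0.44 and 0.15 in the same order. Over all 3 TECs, 50 of 89 genes passed neither ratio in any TEC, where 18.8% of all genes did. These 3 comparisons share the LSEC array.

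Scaling decided the sign of the small medians. With each array scaled to its 75th percentile in place of quantile normalization, the medians became 0.19 in HAK-1B TECs, 0.44 in Hepa1-6 TECs and 0.21 in KYN-2 TECs, beside 0.04, 0.43 and 0.02 over all genes. The number of respiratory chain genes higher was then 16, 32 and 16, where 28.6%, 46.4% and 28.2% of all genes were, and the number lower was 3, 0 and 3, where 26.4%, 21.7% and 27.5% of all genes were.

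**Figure D1:**
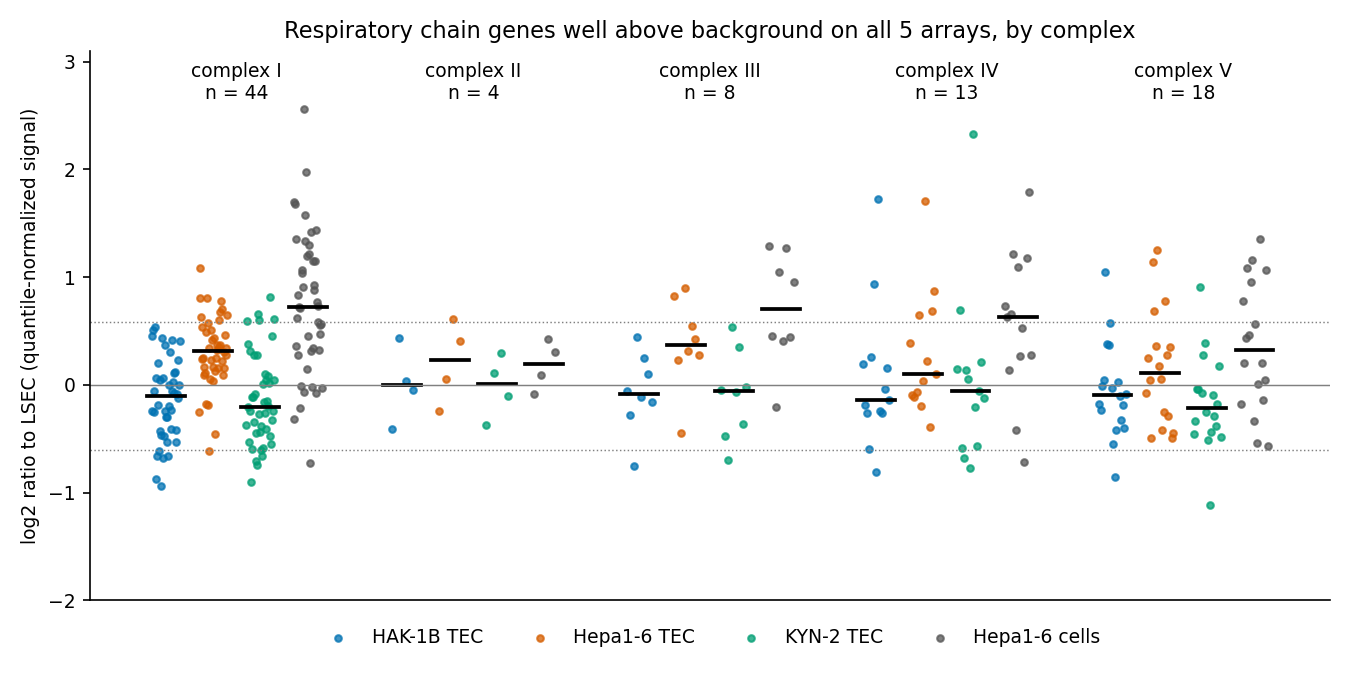
Log2 ratio to LSECs (y axis) of the 87 genes well above background on all 5 arrays, grouped by complex, with 1 point for each gene, black bars for medians and dotted lines at ratios of 1.5 and 0.66; there is 1 array for each condition, so no error bar can be drawn. For complexes I and III the median of Hepa1-6 TECs (0.32 and 0.37) lies above those of HAK-1B TECs (-0.10 and -0.08) and KYN-2 TECs (-0.20 and -0.06), and that of Hepa1-6 cells is the highest (0.73 and 0.70).

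Complex I takes electrons from NADH, and its core subunits hold the flavin and the iron-sulfur clusters. Among the core subunits Ndufv1, Ndufs1 and Ndufs7, none passed the ratio in HAK-1B or KYN-2 TECs with the probes used here. Ndufs1 read 12.17 in LSECs, 12.20 in HAK-1B TECs, 12.84 in Hepa1-6 TECs, 12.25 in KYN-2 TECs and 13.32 in Hepa1-6 cells. It was thus higher in Hepa1-6 TECs, with a log2 ratio of 0.67, and higher again in Hepa1-6 cells (1.15). Ndufv1 and Ndufs7 lay between -0.32 and 0.27 on the TEC arrays. The second probe of Ndufv1 gave 0.34, 0.25 and 0.67 in the HAK-1B, the Hepa1-6 and the KYN-2 TECs. That of Ndufs1 gave -0.12, -0.55 and -0.71. The accessory subunit Ndufa10 had the largest mean ratio of the 3 TECs within complex I among genes detected on all endothelial arrays, 0.71 ± 0.33 (SD over 3 TECs), from 11.87 in LSECs to 12.32, 12.96 and 12.46 in the HAK-1B, the Hepa1-6 and the KYN-2 TECs. Of the other 2 probes of Ndufa10, 1 ran the same way and 1 was lower in Hepa1-6 TECs (-0.83). Ndufa11, an accessory subunit of the membrane arm, averaged 0.56 ± 0.22. On the low side stood Ndufaf1, an assembly factor, at -0.61 ± 0.38, and Ndufb4, an accessory subunit of the membrane arm, at -0.57 ± 0.11. Ndufb4 read 14.20 in LSECs, 13.53, 13.74 and 13.61 in the 3 TECs and 13.48 in Hepa1-6 cells, so that every other array lay below LSECs. With the probes used here, the assembly factors Ndufaf2, Ndufaf4 and Ndufaf6 separated the cultured line from all endothelial arrays. Their log2 ratios were 2.56, 1.57 and 1.98 in Hepa1-6 cells and between -0.74 and 0.51 in TECs. Other Ndufaf6 probes gave 1.06 and 2.31 in Hepa1-6 TECs, beside 2.29 and 2.42 in Hepa1-6 cells. The latter probe was detected on 4 arrays and did not separate Hepa1-6 TECs from the cultured line.

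Complex II, or succinate dehydrogenase, is encoded in the nucleus alone. With the probes used here, no gene of it passed the ratio in HAK-1B or KYN-2 TECs or in Hepa1-6 cells. Of its genes 1, Sdhc, a membrane anchor, was higher in Hepa1-6 TECs (0.61). With the probe used here, the flavoprotein Sdha lay below LSECs on every other array, with ratios between -0.41 and -0.08. Its other probes, detected on all 5 arrays, gave 0.26, 0.56 and 1.07 in Hepa1-6 cells. In TECs they lay between -0.79 and 0.36. The iron-sulfur subunit Sdhb ranged from 0.06 to 0.43. Its second probe gave 0.69 in HAK-1B TECs, -0.11 in Hepa1-6 TECs, 0.57 in KYN-2 TECs and 0.72 in Hepa1-6 cells. The median over the 4 genes was -0.0038 in HAK-1B TECs, 0.23 in Hepa1-6 TECs, 0.0050 in KYN-2 TECs and 0.20 in Hepa1-6 cells.

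Complex III carries electrons from ubiquinol to cytochrome c. Its core protein Uqcrc1 read 12.79 in LSECs, 13.24 in HAK-1B TECs, 13.69 in Hepa1-6 TECs, 13.33 in KYN-2 TECs and 13.84 in Hepa1-6 cells. It was above LSECs everywhere, with a mean of 0.63 ± 0.24 over the 3 TECs, but past the ratio of 1.5 among TECs only in Hepa1-6 TECs. Uqcrb, a small subunit next to the ubiquinol site, went the other way, from 14.17 in LSECs to 13.41, 13.72 and 13.47 in the 3 TECs (mean -0.64 ± 0.16). A second probe in the same transcript gave -0.70, -0.38 and -0.51, and another, detected on 3 arrays, gave -0.09, -1.79 and -0.38. The Rieske protein Uqcrfs1 (0.38 ± 0.15) and the small subunit Uqcr10 (0.24 ± 0.50) followed, and Uqcr10 spread the widest, at -0.05, 0.82 and -0.04 in the HAK-1B, the Hepa1-6 and the KYN-2 TECs.

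The largest ratios lay in genes that have a common partner. Cox7a1, Cox6a2 and Ndufa4l2, the last counted by its name with complex I, were higher in all 3 TECs, and the partners Cox7a2, Cox6a1 and Ndufa4 were higher in none. Cox7a1, the heart and muscle form of subunit 7a (probe at chr7:30970337-30970948 in mm9, across a splice junction), read 7.98 in LSECs, 9.70 in HAK-1B TECs, 9.68 in Hepa1-6 TECs, 10.31 in KYN-2 TECs and 8.25 in Hepa1-6 cells. The 3 TECs lay together and above both other arrays, with a mean log2 ratio of 1.92 ± 0.36, that is between 3.26-fold and 5.03-fold. Its common partner Cox7a2 gave -0.25, 0.22 and -0.20. Cox6a2, the heart and muscle form of subunit 6a (probe at chr7:135349160-135349219), read 7.03 in LSECs, 10.12 in HAK-1B TECs, 7.86 in Hepa1-6 TECs and 9.51 in KYN-2 TECs, and was not well above background in Hepa1-6 cells. Its ratios were 3.08, 0.82 and 2.47, so HAK-1B and KYN-2 TECs stood far above Hepa1-6 TECs. LSECs were at least 2.10-fold above Hepa1-6 cells, and Hepa1-6 TECs at least 3.72-fold above them, each bound taken from the dimmest signal called well above background on the array of Hepa1-6 cells. The common partner Cox6a1 gave -0.60, -0.06 and -0.68 in the same TECs and 0.66 in Hepa1-6 cells.

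Ndufa4l2, a gene induced by hypoxia in many cell types, is the paralog of Ndufa4, a subunit once placed in complex I and later found in complex IV. Ndufa4l2 (probe at chr10:126954149-126954208 in mm9) was not well above background in LSECs or in Hepa1-6 cells and read 5.91 in HAK-1B TECs, 6.61 in Hepa1-6 TECs and 8.87 in KYN-2 TECs. Against the dimmest detected signal on the LSEC array, this was at least 2.35-fold, 3.83-fold and 18.3-fold above LSECs. Its second probe, which has no position in the files, was well above background on 1 array. Ndufa4 read 13.31 in LSECs, 12.43 in HAK-1B TECs, 13.47 in Hepa1-6 TECs, 12.41 in KYN-2 TECs and 14.14 in Hepa1-6 cells. HAK-1B and KYN-2 TECs were thus lower than LSECs, by -0.88 and -0.90, and Hepa1-6 TECs were not (0.17). Another gene linked to low oxygen, Cox4i2, was higher in KYN-2 TECs (0.69) but not in HAK-1B (-0.19) or Hepa1-6 TECs (-0.10), beside 0.15, 0.19 and 0.39 for its common partner Cox4i1. In Hepa1-6 cells both Cox4i2 (0.63) and Cox4i1 (0.73) were higher.

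**Figure D2:**
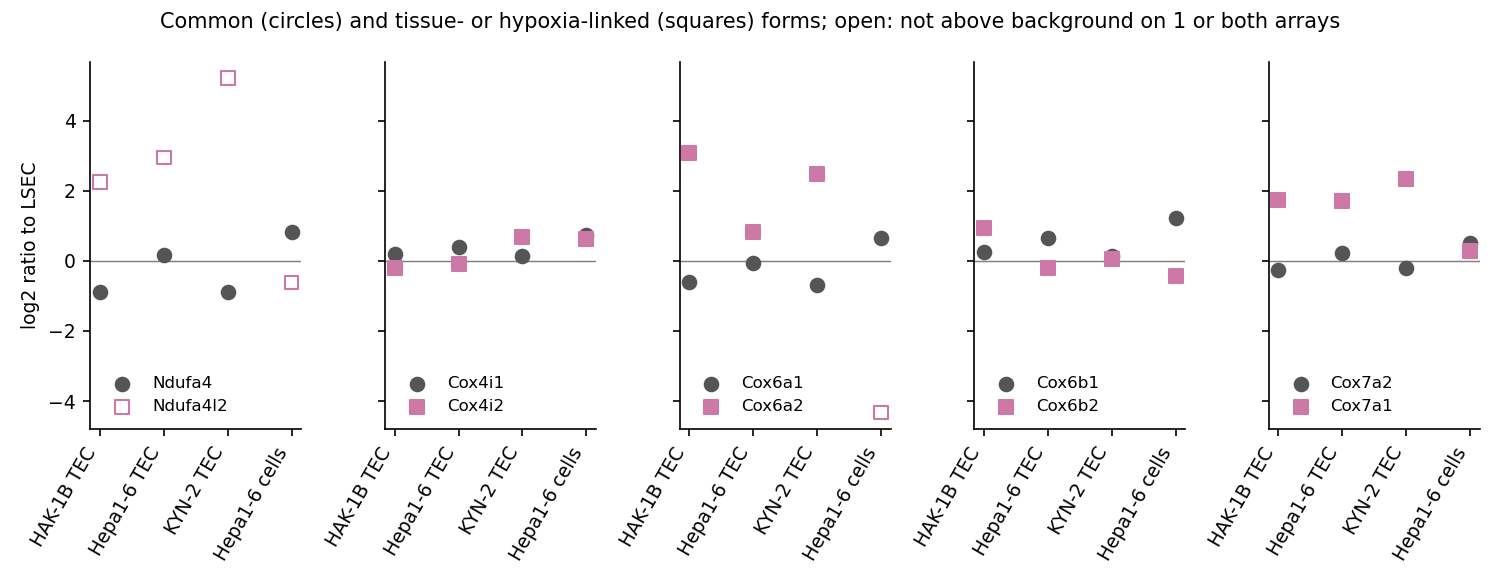
Log2 ratio to LSECs (y axis, shared) on each of 4 arrays (x axis) for 5 pairs of a common form (grey circles) and a form linked to muscle, testis, lung or hypoxia (pink squares), with open symbols where the gene was not well above background on 1 or both arrays. Cox7a1 sits between 1.70 and 2.33 in the TECs and at 0.27 in Hepa1-6 cells, and Ndufa4l2 and Cox6a2 are above their partners in each TEC.

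The remaining second forms differed from array to array. Cox6b2, a testis form, was higher in HAK-1B TECs (0.93) and lay at -0.19 and 0.06 in Hepa1-6 and KYN-2 TECs. Cox7b2 and Cox8c, also testis forms, were well above background in Hepa1-6 TECs alone, the array on which many otherwise dark probes were bright. Hepa1-6 TECs were at least 3.66-fold above LSECs for Cox7b2, and no bound could be given for Cox8c. Cox8b, a muscle form, was not well above background on any array. Among the common forms Cox6b1, Cox7b and Cox8a, Cox6b1 and Cox7b were higher in Hepa1-6 TECs (0.65 and 0.69), and Cox8a stayed between -0.14 and 0.10 in the 3 TECs. Cox5a, a nuclear-encoded subunit, ranged from -0.58 to -0.11 in TECs. Cox6c was lower in HAK-1B and KYN-2 TECs, at -0.81 and -0.77, but 0.03 in Hepa1-6 TECs and 1.09 in Hepa1-6 cells.

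Markers of cell types that use these second forms moved as well. Of 8 pericyte markers, 7 were well above background in LSECs and 8 on each TEC array, and their median log2 ratio to LSECs was 0.83 in HAK-1B TECs, 1.26 in Hepa1-6 TECs and 1.24 in KYN-2 TECs. Of the 8, 1 was below LSECs in HAK-1B TECs, 3 in Hepa1-6 TECs and 0 in KYN-2 TECs. The log2 of their summed signal was 13.52 in LSECs, between 14.47 and 14.99 in TECs and 14.06 in Hepa1-6 cells. Acta2 contributed most to this sum, and read 13.20 in LSECs and 13.94 in Hepa1-6 cells. Of 6 muscle markers, 1 was well above background in LSECs and 2 were in Hepa1-6 cells. In the HAK-1B, the Hepa1-6 and the KYN-2 TECs 4, 5 and 3 were. Their log2 summed signals were 6.86 in LSECs, between 8.27 and 8.87 in TECs and 8.03 in Hepa1-6 cells. Their median log2 signal was low, between 3.28 and 4.99 on the 5 arrays. Of 14 hypoxia-response genes fixed as a list, 9 were higher in HAK-1B TECs, 10 in Hepa1-6 TECs and 13 in KYN-2 TECs. Of all genes, 26.6%, 35.4% and 26% were. The medians of the list were 1.03, 1.42 and 1.72. KYN-2 TECs, with the highest Ndufa4l2 and Cox4i2, also read highest for the oxygen sensor Egln3 (12.01, against 10.54 and 10.59 in HAK-1B and Hepa1-6 TECs). Hepa1-6 cells, with Cox4i2 at 9.05 against 9.11 in KYN-2 TECs, read 8.03 for Egln3. The part of pericytes, muscle cells or low oxygen in these ratios was not tested.

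In complex V the mean ratio of the 3 TECs was highest for Atp5d and lowest for Atp5h. Atp5d, the delta subunit in the central stalk of ATP synthase, read 12.50 in LSECs, 13.55 in HAK-1B TECs, 13.64 in Hepa1-6 TECs, 13.41 in KYN-2 TECs and 13.59 in Hepa1-6 cells. All 4 other arrays lay close together and above LSECs, and the mean over the 3 TECs was 1.03 ± 0.12. A second Atp5d probe was well above background on 1 array only. Atp5h, the d subunit of the peripheral stalk, was the lowest gene of the complex, from 15.62 in LSECs to 14.77, 15.20 and 14.51 in the HAK-1B, the Hepa1-6 and the KYN-2 TECs and 15.08 in Hepa1-6 cells (mean over TECs -0.80 ± 0.35). Its 3 probes lie in the same transcript, and all 3 were below LSECs on every other array. Atp5g1, which codes for the c-ring, averaged 0.74 ± 0.46 with the probe used here, but its 3 probes disagreed: 1 other probe gave between 0.93 and 1.49 in TECs, and a probe assigned to another transcript gave between -1.41 and -0.93. With the probes used here, the catalytic core subunits Atp5a1 and Atp5b and the coupling factor Atp5j passed no ratio in any TEC. They read -0.18, -0.07 and -0.46, then -0.23, 0.25 and -0.34, and then -0.42, -0.25 and -0.44. Other probes of the core subunits, detected on all 5 arrays, disagreed. In the HAK-1B, the Hepa1-6 and the KYN-2 TECs that of Atp5a1 gave 0.55, 0.40 and 1.57. Those of Atp5b gave 0.44, 0.83 and 0.66, and 0.42, 0.30 and 0.68.

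Over the complexes, 4 genes were higher in all 3 TECs, Atp5d, Cox6a2, Cox7a1 and Ndufa4l2, or 4 of 89 where 11% of all genes were. None was lower in all 3 TECs, where 17.8% of all genes were. Without Hepa1-6 TECs, 6 genes were lower in both other TECs (Atp5h, Cox6c, Ndufa4, Ndufaf1, Ndufaf4 and Uqcrb), or 6 of 89 where 22.1% of all genes were. Without HAK-1B TECs, 7 of 89 were higher in both others, where 14.7% of all genes were. Of the 31 genes with several probes detected on all 5 arrays, 17 had mean TEC ratios of 1 sign over their probes and 14 of both signs, with a median range of 0.31 between probes. As a separate result, limma was fitted to the 3 TEC arrays against the LSEC array, with the lone LSEC array taken to vary like the TECs and 2 residual degrees of freedom. It called 0 of 91 respiratory chain genes and 0% of 26905 genes at an adjusted p under 0.05. At an unadjusted p under 0.05 there was 1 gene of the 91, Cox7a1, where 9.18% of all genes passed. The difference for Cox7a1 was 1.92 with a standard error of 0.53 (limma, adjusted p = 0.47), and for Atp5d it was 1.03 with a standard error of 0.45 (limma, adjusted p = 0.61).

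Start-site windows were read for the genes with opposite ratios, so that the letters can be set beside the values above. Of the 92 genes, 75 had a window in RefSeq (GRCm38.p6), from 250 bases before to 50 after the start, and several had 2 windows. Ndufa4l2 and Cox6a2 had none in the table. Searched on both strands, the NRF1 site (GCGCA, any base, then GCGC) was present in 24.7% of 81 windows of these genes and in 4.60% of all 32851 windows, the ETS core that GABPA also reads (CCGGAAG) in 21.0% and 8.86%, and the hypoxia response core (ACGTG or GCGTG) in 66.7% and 43.8%. The median GC content was 57.7% and 52.7%. NRF1 and GABPA are factors known to act on nuclear genes of the respiratory chain. The windows of Cox7a1 (higher in all TECs) and of Cox6a1 (lower in KYN-2 TECs) are shown with those of Atp5d and Atp5h. Capitals mark every match of the 3 motifs on either strand, and no 2 matches overlap in these windows. A match is a description of letters. The 300 bases are shown 5′ to 3′ on the strand given, in GRCm38.p6.
Cox7a1, chr7:30183921-30184220, + strand: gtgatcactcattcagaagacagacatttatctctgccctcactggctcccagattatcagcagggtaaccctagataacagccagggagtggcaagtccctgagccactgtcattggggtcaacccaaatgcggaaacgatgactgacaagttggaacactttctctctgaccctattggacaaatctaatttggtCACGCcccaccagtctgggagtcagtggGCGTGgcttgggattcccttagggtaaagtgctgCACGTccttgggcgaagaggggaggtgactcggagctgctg
Cox6a1, chr5:115348909-115349208, - strand: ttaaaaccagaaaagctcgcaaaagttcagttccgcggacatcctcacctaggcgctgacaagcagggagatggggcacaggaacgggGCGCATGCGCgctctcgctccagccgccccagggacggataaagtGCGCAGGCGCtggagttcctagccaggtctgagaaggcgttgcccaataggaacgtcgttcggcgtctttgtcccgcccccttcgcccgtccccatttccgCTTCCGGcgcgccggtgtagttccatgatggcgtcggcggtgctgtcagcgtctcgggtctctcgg
Atp5d, chr10:80142025-80142324, + strand: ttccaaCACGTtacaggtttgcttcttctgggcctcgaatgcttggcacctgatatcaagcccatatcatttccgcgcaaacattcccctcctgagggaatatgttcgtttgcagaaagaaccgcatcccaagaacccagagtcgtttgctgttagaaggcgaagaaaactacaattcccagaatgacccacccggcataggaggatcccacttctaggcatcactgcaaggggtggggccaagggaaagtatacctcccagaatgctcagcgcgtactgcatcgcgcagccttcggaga
Atp5h, chr11:115419870-115420169, - strand: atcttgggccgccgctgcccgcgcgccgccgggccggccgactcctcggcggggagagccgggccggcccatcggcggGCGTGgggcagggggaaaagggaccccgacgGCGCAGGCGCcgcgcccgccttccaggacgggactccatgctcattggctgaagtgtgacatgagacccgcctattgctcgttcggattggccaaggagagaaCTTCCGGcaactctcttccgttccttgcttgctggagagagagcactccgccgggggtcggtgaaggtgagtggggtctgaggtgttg
The Cox7a1 window held 3 hypoxia cores, and the Atp5d window 1, as did the second Atp5d window, with no NRF1 site or ETS core in any of them. The Cox6a1 window held 2 NRF1 sites, 1 ETS core and no hypoxia core. The Atp5h window held 1 NRF1 site, 1 ETS core and 1 hypoxia core. The hypoxia core is short and was present in 43.8% of all windows. The part of these motifs in the ratios was not tested.

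Cultured Hepa1-6 cells read higher than LSECs for much of the chain. Of 88 genes, 42 were higher, where 36.2% of all genes were, and 3 were lower (Cox6a2, Cox7a2l and Ndufb4), where 37.8% of all genes were. The median log2 ratio was 0.57 over the genes and -0.02 over all genes, and under scaling to the 75th percentile it was 1.26 beside 0.11. By complex the medians were 0.73 for complex I, 0.20 for complex II, 0.70 for complex III, 0.58 for complex IV and 0.32 for complex V. Among genes flagged present on both arrays the share higher was 40.4% over all genes, and 42 of 87 over the respiratory chain. Hepa1-6 cells differed from LSECs in cell type, culture and slide together, and these cannot be told apart.

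By their medians, Hepa1-6 TECs stood between the cultured line and the TECs of human tumors (xenograft TECs). Of 88 genes well above background on the 4 endothelial arrays, 70 were higher in Hepa1-6 TECs than in both HAK-1B and KYN-2 TECs, where 32.5% of all 16976 such genes were, and the median difference from the mean of the 2 was 0.39, beside -0.17 over all genes. With scaling to the 75th percentile 58 of 88 were above both (32.9% of all genes) and the median difference was 0.22. All 8 genes of complex III were above both xenograft TECs, as were 36 of 44 in complex I, 3 of 4 in complex II, 9 of 14 in complex IV and 14 of 18 in complex V. With complexes assigned by name, Ndufa4 showed the largest such difference in complex I (1.05), although its protein was later found in complex IV. Uqcr10 showed the largest in complex III (0.87), Cox6c among the Cox names of complex IV (0.82) and Atp5j2 in complex V (0.80). Cox6a2 showed the largest in the opposite direction (-1.96). The 2 xenograft TECs were closer to each other: KYN-2 TECs differed from HAK-1B TECs by a median of -0.02, with 5 of 89 genes higher (20% of all genes) and 2 lower (18.7% of all genes). The 5 were Cox4i2, Cox7a1, Ndufa4l2, Ndufaf5 and Ndufs4, and the 2 were Cox6a2 and Cox6b2.

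Against the cultured Hepa1-6 cells, Hepa1-6 TECs had 23 of 91 genes lower (32.4% of all genes) and 5 higher (34.3% of all genes), namely Cox6a2, Cox7a1, Cox7b2, Ndufa4l2 and Ndufv3. The difference of Hepa1-6 TECs from the other TECs and the difference of Hepa1-6 cells from LSECs share no array. Across 87 genes detected on all 5 arrays they correlated with r = 0.50 (Spearman's rho 0.56), beside r = 0.42 (rho 0.44) across all 13823 genes. This describes points that share the arrays' normalization, and genes are not independent replicates. Of the 87 genes, 63 (72.4%) were above 0 in both differences, where 35.0% of all genes were.

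**Figure D3:**
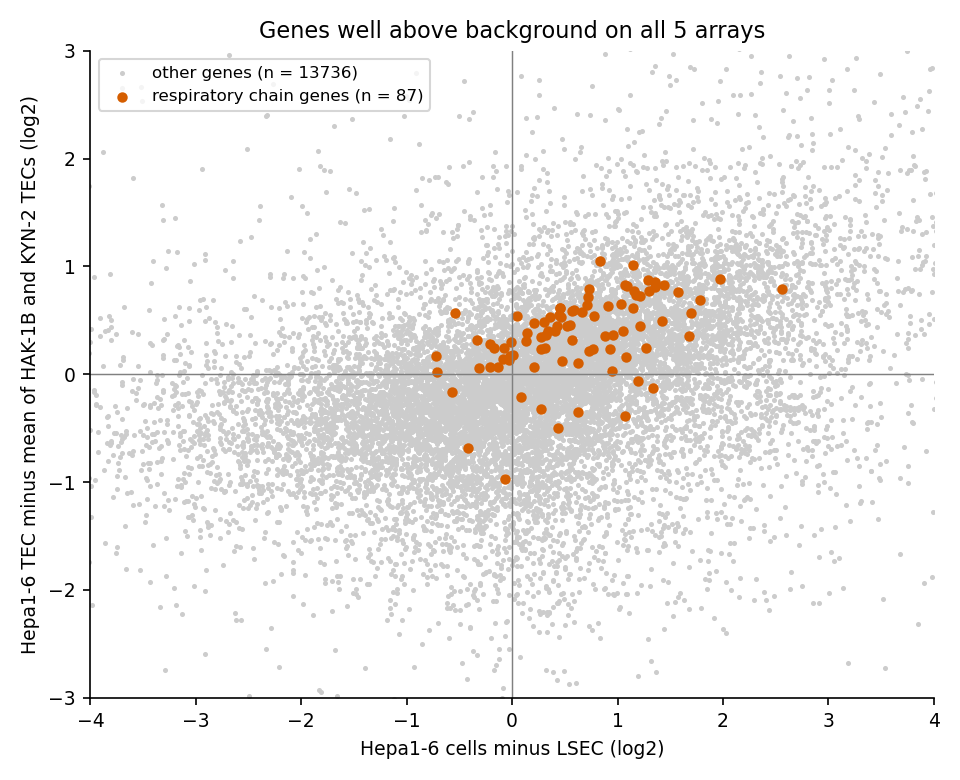
Difference between Hepa1-6 TECs and the mean of HAK-1B and KYN-2 TECs (y axis, log2) against the difference between Hepa1-6 cells and LSECs (x axis, log2), with 87 respiratory chain genes in orange and 13736 other genes in grey, of which 676 lie outside the plotted range. Of the 87 orange points, 77 lie above 0 on the y axis, 70 on the x axis and 63 on both. Of all genes, 35.0% lie above 0 on both axes.

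Other measures moved with the Hepa1-6 TEC array. Albumin read 15.54 there, against 12.97 in LSECs, 6.51 in HAK-1B TECs, 8.85 in KYN-2 TECs and 13.94 in Hepa1-6 cells. Of 10 hepatocyte markers, 10, 8, 9, 10 and 3 were well above background in LSECs, HAK-1B TECs, Hepa1-6 TECs, KYN-2 TECs and Hepa1-6 cells, and the log2 of their summed signal was 14.44, 10.91, 16.09, 13.21 and 14.52, a sum to which albumin contributes most in Hepa1-6 TECs. The markers did not all move with albumin: the median ratio of Hepa1-6 TECs to LSECs was 0.36, with 4 higher and 3 lower of 10. Of all genes, 35.4% were higher and 30.9% lower. Fgb was higher (3.41), whereas Cyp2e1 (-1.65) and Apoa2 (-0.93) were lower and Cps1 was not well above background in Hepa1-6 TECs. The median log2 signal of the list was 9.70 in LSECs, 6.21 in HAK-1B TECs, 9.39 in Hepa1-6 TECs, 6.87 in KYN-2 TECs and 3.48 in Hepa1-6 cells. Their part, and that of the larger share of bright probes on this array, in the respiratory chain values was not tested. Tumor species and, by the methods, host strain may differ in the same way between Hepa1-6 TECs and the other TECs, and these cannot be told apart.

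Subunits encoded in mitochondrial DNA ran below LSECs in the TECs, further than the median of the 92 genes in HAK-1B and KYN-2 TECs (which turned above 0 under scaling to the 75th percentile) and opposite in sign to it in Hepa1-6 TECs. The difference between both groups of genes was not tested. They were listed apart from the 92 genes, and 11 were on the array, all well above background on all 5 arrays. ND2, a complex I subunit, read 16.13 in LSECs, 14.68 in HAK-1B TECs, 15.33 in Hepa1-6 TECs, 14.30 in KYN-2 TECs and 15.17 in Hepa1-6 cells. COX1, the catalytic subunit of complex IV, read 17.74, 17.13, 16.59, 16.68 and 16.91 in the same order. LSECs were highest on both. In HAK-1B TECs 6 of the 11 were lower, in Hepa1-6 TECs 5 and in KYN-2 TECs 9, and none was higher. Over all genes 27%, 30.9% and 28.5% were lower and 26.6%, 35.4% and 26% higher. The medians of the 11 were -0.60, -0.41 and -1.27. Under scaling to the 75th percentile they were -0.37, -0.39 and -0.78, with 1, 4 and 9 lower, where 26.4%, 21.7% and 27.5% of all genes were. In Hepa1-6 cells the median was -0.41 and turned to 0.17 under that scaling. ND6, the one subunit gene of the light strand, was above LSECs in Hepa1-6 and KYN-2 TECs, at -0.60, 0.13 and 0.17. The probe named ND3 is placed on chromosome 1 in the files and the other 10 on the mitochondrial genome (mm9).

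Of 77 genes of the mitochondrial ribosome, which translates those subunits, 2 were higher in HAK-1B TECs, 43 in Hepa1-6 TECs, 12 in KYN-2 TECs and 65 in Hepa1-6 cells, and 6, 1, 1 and 0 were lower. Their medians were 0.09, 0.70, 0.14 and 1.46. Over all genes, 26.6%, 35.4%, 26% and 36.2% were higher in the same order, and 27%, 30.9%, 28.5% and 37.8% were lower. These shares stand beside each count of this paragraph. Of 13 genes of the tricarboxylic acid cycle, 0, 4, 1 and 7 were higher and 1 was lower in each comparison. Of 16 electron carriers and linked dehydrogenases, 1, 5, 4 and 10 were higher and 1, 2, 2 and 2 lower. Cytochrome c (Cycs) read 13.06 in LSECs, 13.00, 13.53 and 12.94 in the HAK-1B, the Hepa1-6 and the KYN-2 TECs, and 15.03 in Hepa1-6 cells. Of 20 assembly factors of complex IV, 2, 5, 2 and 10 were higher and 5, 4, 4 and 2 lower. Coa5 was above LSECs on every other array (1.03, 1.83, 1.26 and 2.14), and Surf1 was below them (-0.71, -0.79, -0.64 and -0.34).

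**Figure D4:**
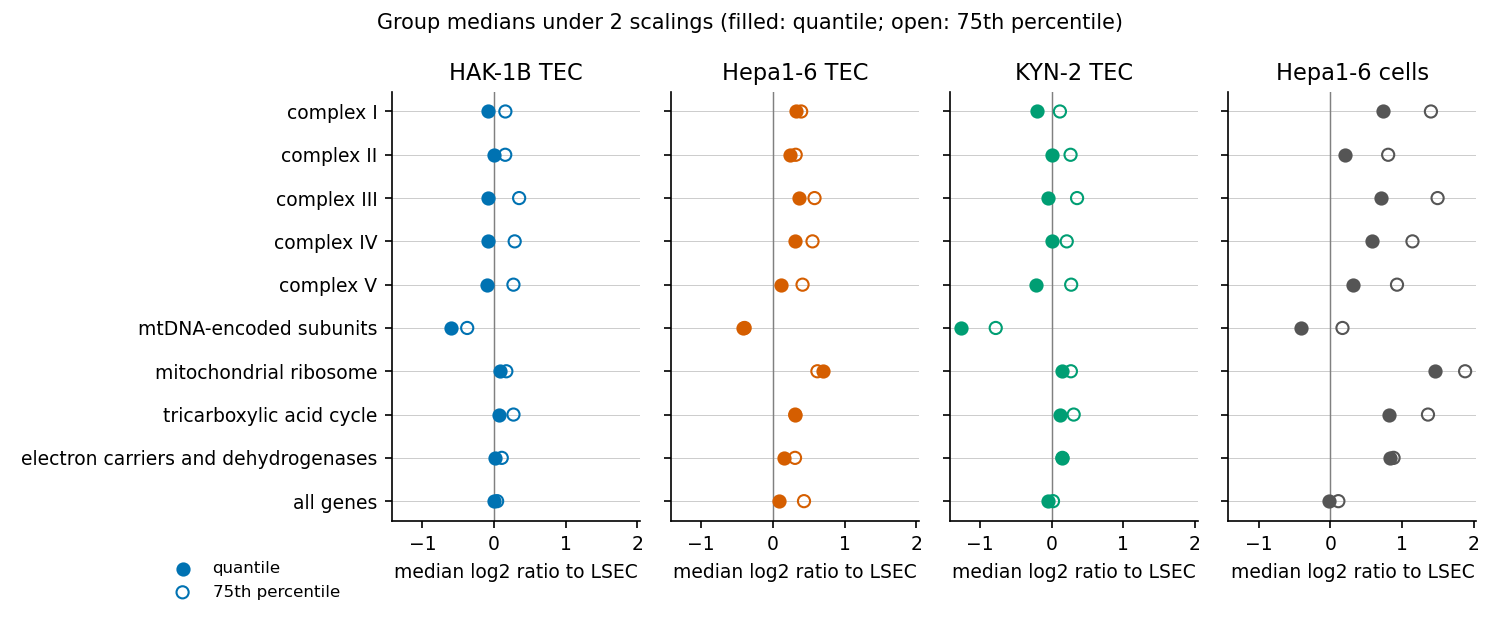
Median log2 ratio to LSECs (x axis) of each complex, of related gene lists and of all genes (y axis), in a panel for each array, with filled points for quantile normalization and open points for scaling to the 75th percentile. The subunits encoded in mitochondrial DNA lie below 0 in each TEC under both scalings (-0.60, -0.41 and -1.27 when filled), and the mitochondrial ribosome is the highest group in Hepa1-6 cells (1.46).

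Regulators of mitochondrial genes gave no gene higher in all 3 TECs, where 11% of all genes were. Of 14, 13 were kept in HAK-1B and in KYN-2 TECs and 14 in Hepa1-6 TECs, with 0, 2 and 3 higher and 2, 2 and 1 lower. In the same order, 26.6%, 26% and 35.4% of all genes were higher and 27%, 28.5% and 30.9% lower. Esrra, a receptor that drives genes of oxidative metabolism, read 12.51 in LSECs, 12.18, 12.30 and 12.88 in the HAK-1B, the Hepa1-6 and the KYN-2 TECs, and 12.25 in Hepa1-6 cells. The coactivator gene Ppargc1b lay between -0.54 and -0.09 in TECs and at -1.78 in Hepa1-6 cells. Ppargc1a was well above background only in Hepa1-6 TECs (6.96) and Hepa1-6 cells (8.27). Tfam, which packages mitochondrial DNA, gave -0.44, -0.17, -0.13 and 1.28, and the factor gene Nrf1 gave -0.10, 0.18, -0.32 and -0.09 in the HAK-1B, the Hepa1-6 and the KYN-2 TECs and Hepa1-6 cells. Myc read 9.84 in LSECs, 9.73, 11.19 and 10.51 in the TECs and 11.45 in Hepa1-6 cells, so it was higher in Hepa1-6 and KYN-2 TECs and in the cultured line.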

How the data were processed

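RNA of 1 sample for each condition was amplified, labelled with Cy3 and hybridized to a 60-mer Agilent mouse array. The authors deposited scanner files that hold linear spot intensity after background subtraction (gProcessedSignal), along with spot mean, local background and flags, not normalized between arrays. The submitters' notes name Feature Extraction 9.5.1.1 and the file headers 10.7.1.1. They also deposited a table of normalized intensities, used as an alternative: its log2 values correlated with the scanner's at 0.987 or more, every column has a median of 43.0, and how it was normalized beyond equal distributions is unknown. The paragraph of the methods on the arrays names Huh-7 where the labels name HAK-1B.

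Here control spots and outlier spots were dropped, spots of a probe were averaged (56605 probes), and the log2 intensities of all 5 arrays were brought to 1 distribution by quantiles (the methods give this for pairs). The methods' ratios of 1.5 and 0.66 were used without their Z-score of 2, an alternative, for genes with a present flag on either array compared, without lincRNA probes. A probe not well above background was given a bound. The members and lists were chosen with earlier results of these data known. Named genes were the 4 in each complex with the largest absolute mean TEC ratio among genes detected on the 4 endothelial arrays, second forms of subunits with their partners, core subunits and regulators. Other genes named were chosen after their values were seen. Python 3.11.15, pandas 2.3.3, numpy 2.4.6, R 4.3.3 and limma 3.58.1 were used. The ratio and limma were tested on simulated data. The number of arrays limits the precision.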

Additional observations from a re-analysis of the deposited data

Results flagged for a closer look

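In complexes I, III and V the median log2 ratio to LSECs in Hepa1-6 TECs had the opposite sign to that in both xenograft TECs, those of the human HAK-1B and KYN-2 tumors. It was 0.32 for complex I, against -0.09 in HAK-1B and -0.20 in KYN-2 TECs, 0.37 for complex III, against -0.08 and -0.06, and 0.11 for complex V, against -0.10 and -0.22. The difference was not tested, since there is 1 array for each tumor, and under scaling to the 75th percentile all 9 medians were above 0, with 0.40, 0.58 and 0.41 in Hepa1-6 TECs and between 0.12 and 0.35 in the xenograft TECs.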

How the results depend on the processing

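No paired analysis was possible because no condition had a second array, and a slide block was not run, since the slide of the TEC arrays held no other group. Pairwise quantiles, normexp (offset 50) and the deposited table kept the direction of every median of the respiratory chain genes. Scaling to the 75th percentile turned 3 medians, to 0.19 in HAK-1B TECs (0.15 above the median of all genes), 0.21 in KYN-2 TECs (0.19 above) and 0.037 for KYN-2 against HAK-1B TECs (0.038 above), and moved those of Hepa1-6 cells to 1.26 and of Hepa1-6 TECs against the cells to -0.75. It gave 16 genes higher (28.6% of all genes) and 3 lower (26.4%) in HAK-1B TECs, and 16 (28.2%) and 3 (27.5%) in KYN-2 TECs. In Hepa1-6 TECs 0 were lower (21.7% of all genes). It also gave 73 higher in Hepa1-6 cells, 1 lower in KYN-2 against HAK-1B TECs and 61 lower in Hepa1-6 TECs against the cells. In all 3 TECs 9 were higher. A change of setting shifts the counts over all genes too. Where no share over all genes stands beside a count, it shows the dependence on processing alone and is no result about the respiratory chain genes. With a Z-score of 2 beside the ratio, 1 gene was higher in HAK-1B TECs, 0 in Hepa1-6 TECs, 1 in KYN-2 TECs, 0 in Hepa1-6 cells, 1 in KYN-2 against HAK-1B TECs, 1 in Hepa1-6 TECs against the cells and 0 in all 3 TECs, and 0 were lower in each. With ratios of 2 and 0.5, 6 were higher and 0 lower in Hepa1-6 TECs, 3 and 1 in KYN-2 TECs, 27 and 1 in Hepa1-6 cells, 1 and 0 in KYN-2 against HAK-1B TECs, 0 were lower in HAK-1B TECs, 9 were lower in Hepa1-6 TECs against the cells and 2 were higher in all 3 TECs. Flags on both arrays left 2 of 87 higher in Hepa1-6 TECs against the cells (17.3% of all genes), and put the median of the respiratory chain genes 0.14 above that of all genes. Without the flag filter 2 were lower in Hepa1-6 TECs, 5 in Hepa1-6 cells and 1, Cox8b, in all 3 TECs. The genes lower in Hepa1-6 TECs numbered 0 with pairwise quantiles, with normexp and without the names that are no subunit, and those lower against the cells were 37 with the median over probes and 15 without those names. Normexp left 1 lower in KYN-2 against HAK-1B TECs. Leaving out each TEC in turn gave between 4 and 7 genes higher and between 0 and 6 lower in all TECs that remained. Over all genes the shares were between 14.0% and 16.4% higher and between 20.5% and 22.1% lower. For 39 named genes, 134 of 156 alternatives moved the mean TEC ratio by less than its SD, 21 by more, and 1 turned it: Atp5g1 at -0.69 with the median over probes. limma called 0 genes under each alternative, with between 1407 and 4077 genes at an unadjusted p under 0.05. The median difference of Hepa1-6 TECs from the xenograft TECs, examined under alternatives chosen after seeing the data, lay between 0.22 and 0.40. The cause of these shifts was not tested.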
